A study of Mus musculus with 10 samples.

Results

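The genes described here are 36 mouse genes of the p53 response and of apoptosis control: Trp53, which encodes p53, its target genes, and regulators of cell death from the BCL2 family. They are a list of gene symbols, drawn up with earlier results of these data known, so that their shares below are a description and not a blind test. All 36 were found among the 24454 genes of the count table. All 36 also passed the filter on low counts, with 13135 genes tested in all. RNA was sequenced from NMuMG/E9 cells, a subclone of an established epithelial line from normal mouse mammary gland, so that every library came from 1 clone. All cells received siRNA at 20 nM and were collected 3 d after transfection. There were 4 groups and 10 libraries. Cells with control siRNA and no TGFbeta are called untreated siCtr here (0 d in the plots, replicates 1 and 3), and cells with siRNA against Irf1 and no TGFbeta untreated siIrf1 (replicates 1, 2 and 3). Recombinant human TGFbeta1 at 2 ng/ml, given for the last 2 d, makes the treated groups, treated siCtr (replicates 2 and 3) and treated siIrf1 (replicates 1, 2 and 3). The series asks how interferon regulatory factor 1, the product of Irf1, acts in epithelial cells and during the epithelial-mesenchymal transition (EMT) that TGFbeta starts in this line.

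p53 is a transcription factor that is held at a low level by the ubiquitin ligase MDM2 and is stabilised by DNA damage and other stresses. It then raises genes that stop the cell cycle, repair DNA, supply nucleotides, guard against oxidative stress or permeabilise mitochondria. It also raises Mdm2, which closes a negative feedback loop. Whether a mitochondrion releases cytochrome c depends on the balance within the BCL2 family: BAX and BAK form the pore, BCL2, BCL-XL and MCL1 restrain them, and BH3-only proteins such as PUMA, NOXA and BIK tip the balance toward death. IRF1 is itself a transcription factor and has been described to act together with p53 on Cdkn1a after DNA damage. TGFbeta slows the growth of many epithelial cells, for which the CDK inhibitor p21, encoded by Cdkn1a, is one known route.

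Library totals were 27547649 to 67301646 counts, with 14475 to 15771 genes detected. Irf1 was lower with its siRNA, by a log2 fold change of -1.22 (SE 0.153) without TGFbeta and -1.40 (SE 0.153) with it. Fn1, a gene of the TGFbeta response, was higher with TGFbeta by 5.07 (SE 0.616) in siCtr and 2.53 (SE 0.448) in siIrf1 cells. Summed epithelial markers were at 6929 to 14680 CPM (counts scaled to a common effective library size) in all groups, with 1 of the 8, Cldn7, at 0 throughout. Only 5 of the 8 passed the filter on low counts. The sum hides opposite changes: with TGFbeta in siCtr cells 2 of the 5 rose and 2 fell, where 16.1% of all genes rose and 16.3% fell. Of the other lineages, 3 of 5 fibroblast markers were detected, and their sum was 0.0606 to 0.791 CPM without TGFbeta and 15.2 to 22.7 CPM with it, while Lum and Thy1 were at 0. Immune markers, 3 of 5 detected, summed to 27.3 to 58 CPM with Adgre1 and Cd3e at 0, and the 4 endothelial markers to 0 to 0.158 CPM without TGFbeta and 1.52 to 5.92 CPM with it; the part of these lists in the results below was not tested. Treated siIrf1 replicate 2 had the lowest mean correlation with its own group, r = 0.975, against 0.984 and 0.98 for replicates 1 and 3. The 2 untreated siCtr libraries had r = 0.978 with each other, which cannot show that either of them is the odd one. Untreated siCtr replicate 1 lay at one end of the composition range given next. The libraries also differed in how they represented genes by base composition. The mean log2 deviation of the 25% of genes poorest in GC minus that of the 25% richest in GC was -1.37 and -0.61 in untreated siCtr cells and 0.74, 0.19 and 0.93 in untreated siIrf1 cells. It was -0.46 and -0.46 in treated siCtr cells and 0.66, -0.39 and 0.77 in treated siIrf1 cells. Each siRNA effect that passed the test is therefore given also from a fit in which a trend of expression with transcript length and GC content was removed from each library, called trend-removed below. The labels do not say whether replicates were separate cultures, so that p-values measure the spread between these libraries, which may be technical. In bulk RNA fewer cells with a transcript and less transcript per cell cannot be told apart.

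The promoters of these genes are shown first because p53 binds its targets through a half-site of 10 bases, usually in pairs. RefSeq (GRCm38.p6) windows of 250 bases before to 50 bases after the start were held for 27 of the 36 genes, in 39 windows. Bik, Ddb2, Perp, Pmaip1, Rrm2b, Tnfrsf10b, Trp53inp1, Xpc and Zmat3 were not matched. Below are the stretches upstream of the annotated gene for 3 genes with a p53 half-site that rose with Irf1 siRNA, and for Plk2, the 1 gene of the 27 with the IRF element GAAANNGAAA on either strand. Capitals mark the match.
Cdkn1a (chr17:29090729-29090978, plus strand): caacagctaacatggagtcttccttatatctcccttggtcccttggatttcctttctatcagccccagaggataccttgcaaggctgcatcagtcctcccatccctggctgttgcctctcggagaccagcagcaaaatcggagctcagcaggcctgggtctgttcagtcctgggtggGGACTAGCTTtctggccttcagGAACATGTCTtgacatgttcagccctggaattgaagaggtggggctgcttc
Ccng1 (chr11:40755310-40755536, minus strand): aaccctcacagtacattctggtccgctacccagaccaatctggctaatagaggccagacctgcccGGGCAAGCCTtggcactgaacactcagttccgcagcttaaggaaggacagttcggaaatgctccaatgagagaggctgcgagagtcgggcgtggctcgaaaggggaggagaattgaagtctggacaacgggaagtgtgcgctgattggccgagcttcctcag
Mdm2 (chr10:117710759-117711008, minus strand): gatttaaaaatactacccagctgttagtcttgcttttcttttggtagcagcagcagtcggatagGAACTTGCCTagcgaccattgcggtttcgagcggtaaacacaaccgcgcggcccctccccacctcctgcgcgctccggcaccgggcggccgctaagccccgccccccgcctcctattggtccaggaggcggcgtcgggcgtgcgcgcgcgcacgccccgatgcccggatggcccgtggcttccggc
Plk2 (chr13:110394794-110395043, plus strand): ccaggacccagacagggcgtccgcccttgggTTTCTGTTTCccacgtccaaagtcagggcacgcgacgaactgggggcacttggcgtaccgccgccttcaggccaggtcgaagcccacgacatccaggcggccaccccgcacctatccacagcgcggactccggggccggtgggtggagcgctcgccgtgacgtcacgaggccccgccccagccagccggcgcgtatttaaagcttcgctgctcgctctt

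The p53 half-site, searched on both strands as its usual consensus with no mismatch allowed, was in 11 of the 39 windows (28.2%), against 8.36% of all 32851 windows of the same length. These windows belonged to 10 genes: Aen, Bax, Ccng1, Cdkn1a, Ei24, Gadd45a, Mdm2, Polk, Sesn1 and Trp53. The same Aen match was counted in overlapping windows. Many members were listed because they are p53 targets, so that this share describes the choice of genes. Of those not shown in full, Polk held GAACTAGCCT at 231 bases before a transcript start, Gadd45a GGGCTAGCCC at 40, Bax AGGCAAGCTT at 201 and Trp53 GGACTTGCCC at 75. The Polk window (chr13:96519138-96519437) lies inside the annotated gene (chr13:96480687-96542579). So does the Sesn1 window (chr10:41887189-41887488, gene chr10:41810574-41908436), so that the matches in Polk and Sesn1 are not upstream of the annotated gene. Only Cdkn1a held a pair of exact half-sites separated by no more than 13 bases, the arrangement found in 0.0731% of all windows. The exact half-sites of Cdkn1a began 73 and 51 bases before the start. Near matches were not counted, such as agacctgccc directly before the Ccng1 half-site or tgacatgttc directly after GAACATGTCT in Cdkn1a. Pairs that include a near match are thus left out of these numbers. The IRF element was in 3.44% of all windows, and in Plk2 it began 219 bases before the start. The GC box GGGCGG was in 66.7% of the members' windows and 35.7% of all, the TATA box TATAAA in 7.69% and 13.6%, and the AP-1 site TGANTCA was in Fas alone (2.56% and 7.81%). Without TGFbeta, 4 of the 10 genes with a half-site rose with Irf1 siRNA (Ccng1, Cdkn1a, Mdm2 and Polk), and so did 4 of the 17 with a window and no half-site (Btg2, Eda2r, Fas and Plk2). A match describes the letters only.

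With Irf1 siRNA and no TGFbeta, 11 of the 36 genes rose and 1 fell. The 11 were Btg2, Ccng1, Cdkn1a, Eda2r, Fas, Mdm2, Perp, Plk2, Polk, Rrm2b and Trp53inp1, a mixture of cell cycle, repair and death receptor genes, and Plk3 fell. The share that rose was 30.6%, where 16.3% of all genes tested rose, and the share that fell was 2.78%, where 15.5% of all genes fell (edgeR quasi-likelihood F test, Benjamini-Hochberg adjusted p under 0.05). Both directions together, 33.3% of members and 31.8% of all genes were called, so that the total called was near the background. The median log2 fold change was 0.33 over the members and -0.03 over all genes. Trend-removed, 14 members rose and 3 fell, against 15.8% and 20.1% of all genes. Without untreated siCtr replicate 1, the library at one end of the composition range, 7 members were called, all higher (19.4%, against 12.9% of all genes).

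With Irf1 siRNA in the presence of TGFbeta, 7 members rose (Btg2, Ccng1, Cdkn1a, Dram1, Eda2r, Perp and Trp53inp1) and 2 fell (Bik and Gadd45a). These are 19.4% and 5.56% of the members, where 9.72% of all genes rose and 8.28% fell. The median was 0.32 over the members and 0.05 over all genes. The comparisons without and with TGFbeta compare different libraries, but 1 fit over all 10 libraries gave the spread for both. In both, 6 genes rose: Btg2, Ccng1, Cdkn1a, Eda2r, Perp and Trp53inp1, which are 6 of the 11 and 6 of the 7. The share of all genes that rose in both was not counted, so that the 6 have no background beside them. Trend-removed, 14 members rose and 2 fell with TGFbeta, against 13.3% and 13.9% of all genes. The 7 added, all higher, were Bbc3 (0.98), Bcl2l1 (0.71), Cd82 (0.55), Ei24 (0.73), Fas (0.96), Gdf15 (0.92) and Mcl1 (0.47). Leaving out libraries moved the number of all genes called, as the closing section gives, and also that of members. The count of 9 was 4 without treated siCtr replicate 2, 5 without treated siCtr replicate 3, and 15 without treated siIrf1 replicate 2 and untreated siCtr replicate 1 together.

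**Figure D1:**
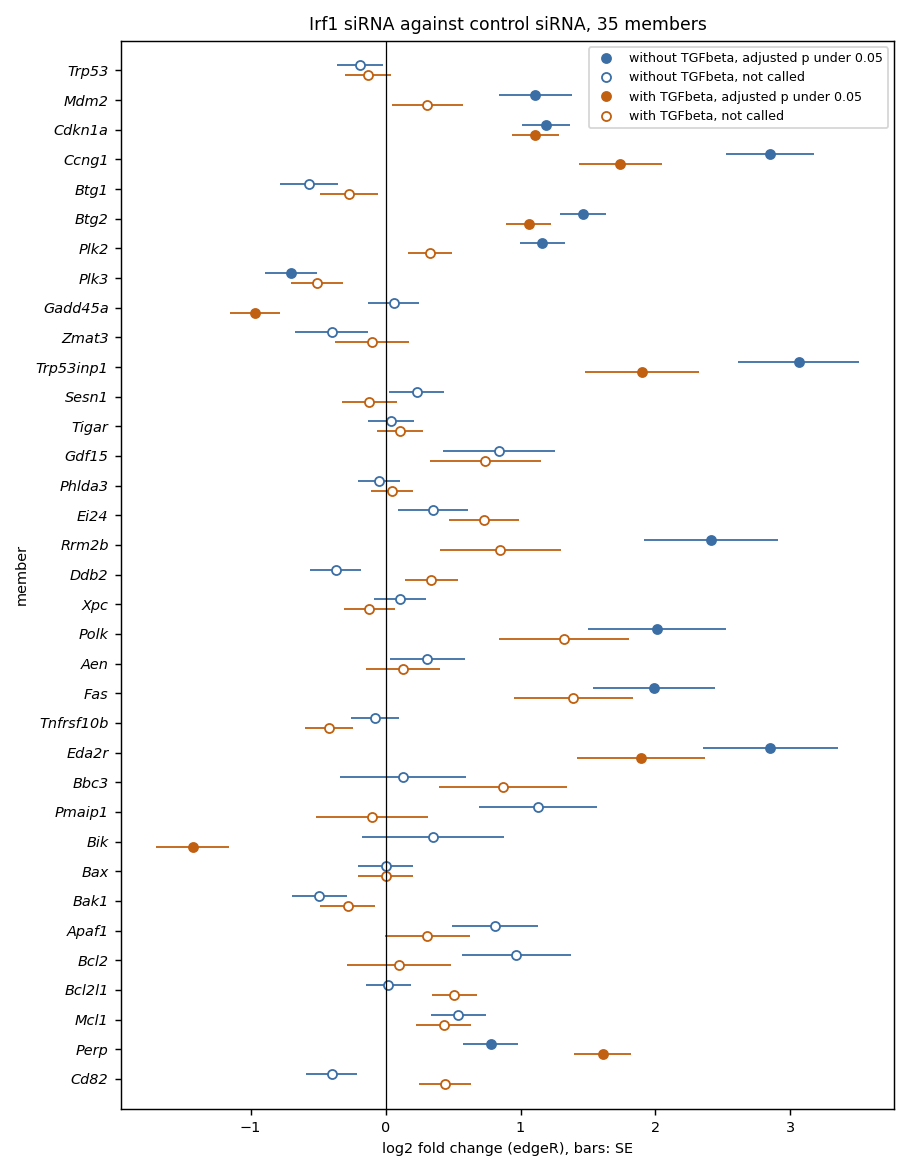
Log2 fold change of siIrf1 against siCtr for 35 members (horizontal axis, bars: SE) by gene (vertical axis), without TGFbeta in blue and with TGFbeta in orange; filled points had an adjusted p under 0.05. Cdkn1a, Ccng1, Btg2, Trp53inp1, Eda2r and Perp are filled and to the right of 0 in both, Trp53 is near 0 in both, and Dram1, at 0 counts in 1 group, is not drawn.

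TGFbeta in siCtr cells raised 6 members (Bcl2, Bik, Gadd45a, Plk2, Pmaip1 and Rrm2b) and lowered 3 (Bcl2l1, Cd82 and Ddb2). These are 16.7% and 8.33% of the members, where 16.1% of all genes rose and 16.3% fell, so that the share that rose was close to the background. The median log2 fold change was -0.07, against 0.02 for all genes. Trend-removed, 8 rose and 9 fell, against 19.9% and 23.9% of all genes. Here too the number of all genes called moved when libraries were left out, as the closing section gives. The count of 9 was 5 without untreated siCtr replicate 1 or without treated siCtr replicate 2, and 15 without untreated siCtr replicate 3 or without treated siIrf1 replicate 2.

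TGFbeta in siIrf1 cells raised 3 members (Bik, Dram1 and Perp) and lowered 5 (Bax, Btg2, Cd82, Cdkn1a and Ddb2). These are 8.33% and 13.9% of the members, where 11.6% of all genes rose and 9.71% fell. The median was -0.16, against 0.02 for all genes, and it was -0.16 also with Dram1 at its lower bound. Trend-removed, 5 rose and 11 fell, against 14.4% and 18.6% of all genes. With the replicate number as a block, 3 rose and 7 fell: Gdf15 (-1.15, adjusted p = 0.032) and Mcl1 (-0.45, adjusted p = 0.0401) were added. Same-numbered libraries deviated together only weakly in these 2 groups, and not in these alone, and the labels state no pairing. The count of 8 was 3 without untreated siIrf1 replicate 1, 2 or 3 or without treated siIrf1 replicate 1, and 5 without either treated siCtr library or without treated siIrf1 replicate 3. It was 15 without treated siIrf1 replicate 2 and untreated siCtr replicate 1 together. Over all genes the number called moved as well when libraries were left out, as the closing section gives. Bik rose and Cd82 and Ddb2 fell with TGFbeta under both siRNAs.

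**Figure D2:**
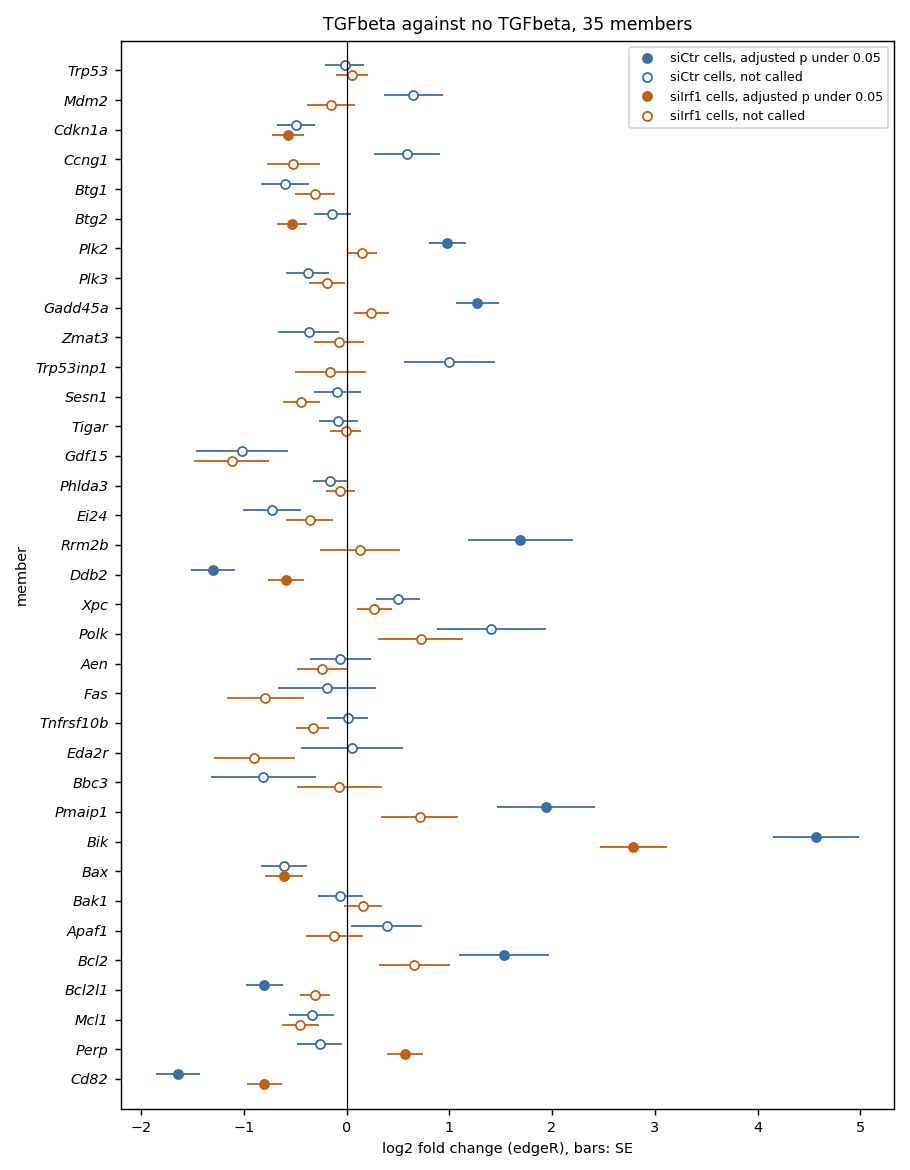
Log2 fold change of TGFbeta against no TGFbeta for 35 members (horizontal axis, bars: SE) by gene (vertical axis), in siCtr cells in blue and siIrf1 cells in orange; filled points had an adjusted p under 0.05. Bik lies farthest to the right in both, at 4.57 and 2.79, Cd82 farthest to the left in siCtr cells, and Dram1 is not drawn.

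The interaction, which asks whether the siRNA effect differed with TGFbeta, called 0 of the 36 members by edgeR, where 4.12% of all genes were called. At an unadjusted p under 0.05 there were 9, a count for which the share of all genes was not taken. DESeq2 called 3 (8.33%, against 8.92% of all genes), Cd82 (0.82, adjusted p = 0.0457) upward and Gadd45a (-1.04, adjusted p = 0.00317) and Plk2 (-0.85, adjusted p = 0.0137) downward. Trend-removed there were 5 (13.9%, against 9.37% of all genes), Cd82 and Perp upward and Bik, Gadd45a and Plk2 downward. Without untreated siCtr replicate 3 there were 4 (Ccng1, Eda2r, Gadd45a and Rrm2b), or 11.1%, against 12.2% of all genes. Of these shares, the trend-removed one was above the background, on 5 genes, and the others were near it. A difference between the siRNA effects without and with TGFbeta was thus not shown for any member by the test used throughout.

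Trp53 (chr11:69580348-69591873, GRCm38 as all positions here) did not pass the test in any of the 5 comparisons. Its level was 294 and 237 CPM in untreated siCtr cells, 221, 275 and 200 CPM in untreated siIrf1 cells, 272 and 252 CPM in treated siCtr cells, and 228, 265 and 228 CPM in treated siIrf1 cells. The 4 groups overlapped. The fold change with Irf1 siRNA was -0.19 (SE 0.172, adjusted p = 0.412) without TGFbeta and -0.13 (SE 0.173, adjusted p = 0.681) with it.

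Mdm2 (chr10:117688875-117710758) was the member with the highest level per transcript length in all 4 groups. The group means were 390 ± 112 (SD, n = 2), 843 ± 135 (n = 3), 613 ± 30.5 (n = 2) and 759 ± 204 RPKM (CPM divided by transcript length, n = 3) in untreated siCtr cells, untreated siIrf1, treated siCtr and treated siIrf1. By library it was at 963 and 1455 CPM in untreated siCtr cells and 2961, 2151 and 2729 CPM in untreated siIrf1 cells. It was at 1967 and 1834 CPM in treated siCtr cells and 2753, 1625 and 2678 CPM in treated siIrf1 cells. Without TGFbeta the siRNA groups were apart, and with TGFbeta they overlapped, treated siIrf1 replicate 2 being the lowest of the 5 libraries. Mdm2 rose 2.16-fold with Irf1 siRNA in the absence of TGFbeta (log2 1.11, SE 0.268, adjusted p = 0.013; trend-removed 0.80). Without untreated siCtr replicate 1 the call was lost (0.84, adjusted p = 0.0944).

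Cdkn1a (chr17:29090979-29100722) encodes p21, which binds cyclin-dependent kinases and stops the cell cycle. Its level was 255 and 185 CPM in untreated siCtr cells against 484, 527 and 491 CPM in untreated siIrf1 cells. With TGFbeta it was 151 and 162 CPM against 311, 386 and 316 CPM. Every siIrf1 library lay above every siCtr library, with and without TGFbeta. Cdkn1a rose 2.28-fold with Irf1 siRNA without TGFbeta (log2 1.19, SE 0.176, adjusted p = 0.00149) and 2.16-fold with it (1.11, SE 0.175, adjusted p = 0.00247). Its transcript has a GC content of 54.4%, the highest of the 11 that rose, and trend-removed the values were 1.58 and 1.21. TGFbeta lowered it in siIrf1 cells by 0.57 on the log2 scale (adjusted p = 0.0223), while in siCtr cells the value was -0.49 (adjusted p = 0.0674). The fall in siIrf1 cells did not pass the test without any 1 of the 3 untreated siIrf1 libraries or without treated siIrf1 replicate 1 or 3 (-0.59 to -0.51, adjusted p 0.0604 to 0.098).

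Btg2 (chr1:134074865-134079155), an antiproliferative gene that p53 induces, had the same order of groups. It was at 67.6 and 50.9 CPM in untreated siCtr cells and 154, 173 and 161 CPM in untreated siIrf1 cells, and at 50 and 57.8 CPM against 117, 116 and 104 CPM with TGFbeta. The siRNA groups did not overlap in either condition. It rose by 1.46 (SE 0.17, adjusted p = 5.89e-04, trend-removed 1.61) without TGFbeta and by 1.06 (SE 0.167, adjusted p = 0.00242, trend-removed 1.11) with it. TGFbeta lowered it in siIrf1 cells by 0.53 (adjusted p = 0.0245), a call lost without any 1 of the 3 untreated siIrf1 libraries or without treated siIrf1 replicate 1 or 3 (-0.57 to -0.48, adjusted p 0.0584 to 0.0754). Its paralog Btg1 passed in no comparison as counted. Btg1 was at 253 and 225 CPM in untreated siCtr cells and 178, 134 and 172 CPM in untreated siIrf1 cells, where the value was -0.57 (adjusted p = 0.0662) and, trend-removed, -1.74 (adjusted p = 0.00146).

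Ccng1 (chr11:40748552-40755309) encodes cyclin G1, a p53 target that recruits a phosphatase to MDM2. It stood at 50.7 and 92.5 CPM in untreated siCtr cells against 471, 434 and 645 CPM in untreated siIrf1 cells. With TGFbeta it was at 112 and 104 CPM against 447, 265 and 371 CPM. The gap between the siRNA groups was wide in both conditions. It rose 7.22-fold without TGFbeta (log2 2.85, SE 0.328, adjusted p = 5.95e-04) and 3.35-fold with it (1.74, SE 0.31, adjusted p = 0.00469). Its GC content is low, 40.8%, and trend-removed the values fell to 1.58 (adjusted p = 4.60e-05) and 1.06 (adjusted p = 1.52e-04). The call with TGFbeta was lost without treated siCtr replicate 2 (1.73, adjusted p = 0.0538) or 3 (1.64, adjusted p = 0.06).

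Plk2 (chr13:110395044-110400844), a polo-like kinase with a checkpoint role in the cell cycle, rose with either treatment alone. It was at 274 and 231 CPM in untreated siCtr cells, 640, 532 and 521 CPM in untreated siIrf1 cells, 449 and 547 CPM in treated siCtr cells and 651, 567 and 656 CPM in treated siIrf1 cells. The untreated siCtr libraries lay below all others. The rise was 1.16 (SE 0.167, adjusted p = 0.00136, trend-removed 1.14) with Irf1 siRNA and 0.98 (SE 0.178, adjusted p = 0.00211, trend-removed 1.04) with TGFbeta in siCtr cells; these comparisons share the untreated siCtr libraries. With TGFbeta present the siRNA effect was 0.33 (adjusted p = 0.208). The interaction was -0.83 (SE 0.228, adjusted p = 0.0783). Its relative Plk3 was at 11 and 11.6 CPM in untreated siCtr cells and 6.66, 7.92 and 6.25 CPM in untreated siIrf1 cells, a fall of 0.70 (SE 0.191, adjusted p = 0.0207). That call was lost trend-removed (-0.20, adjusted p = 0.416) and without 6 of the 10 libraries, the untreated siCtr and treated siCtr libraries and untreated siIrf1 replicates 1 and 3 (-0.75 to -0.59, adjusted p 0.0523 to 0.106).

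**Figure D3:**
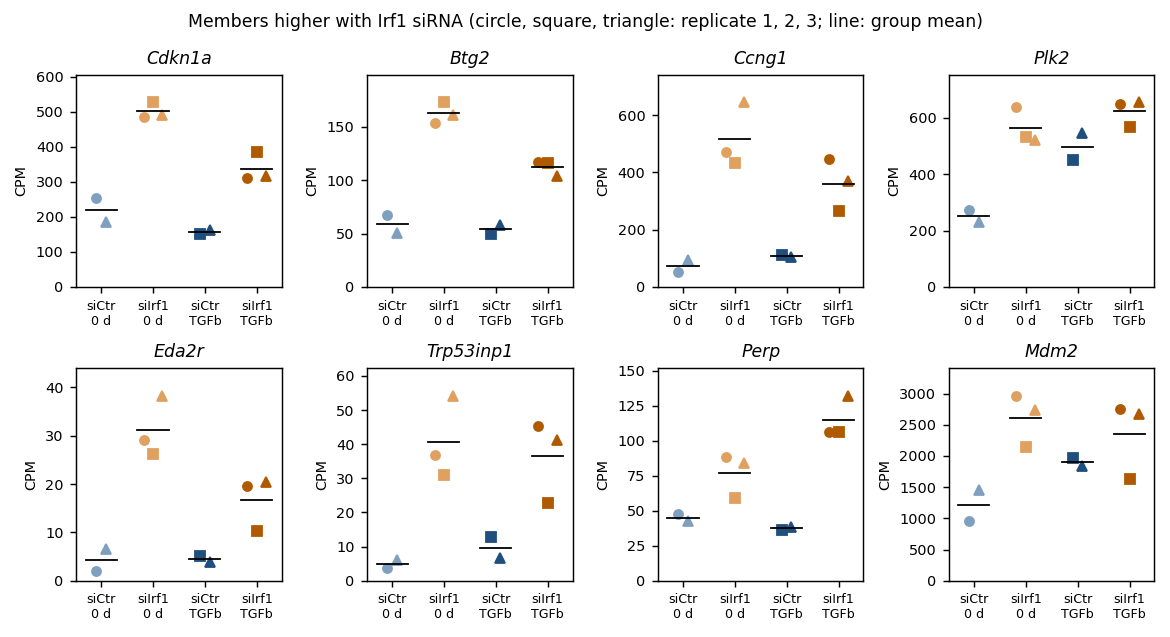
CPM (vertical axis, linear from 0, a scale per panel) of 8 members in each of the 10 libraries, by group; circles, squares and triangles are replicates 1, 2 and 3 and lines are group means. Cdkn1a, Btg2, Ccng1, Eda2r, Trp53inp1 and Perp are higher in all siIrf1 libraries than in the siCtr libraries of the same condition, and so is Plk2 by a smaller margin with TGFbeta, whereas Mdm2 overlaps between the siRNAs with TGFbeta.

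Gadd45a (chr6:67035096-67037407) encodes a stress-induced growth arrest protein and is also known to respond to TGFbeta. It was at 17.2 and 23.5 CPM in untreated siCtr cells and 19.7, 24 and 20 CPM in untreated siIrf1 cells. With TGFbeta it was at 52.4 and 45.9 CPM in siCtr cells and 26, 25.7 and 23.5 CPM in siIrf1 cells. The treated siCtr libraries were far above the other 3 groups. TGFbeta raised it by 1.27 in siCtr cells (SE 0.209, adjusted p = 0.00116) and had a value of 0.24 (SE 0.169, adjusted p = 0.383) in siIrf1 cells. Irf1 siRNA lowered it in the presence of TGFbeta by 0.97 (SE 0.185, adjusted p = 0.00619, trend-removed -0.96), a call lost without treated siCtr replicate 2 (-0.93, adjusted p = 0.0705). The interaction was -1.03 (SE 0.267, adjusted p = 0.0642). Zmat3, a zinc finger RNA-binding protein, was between 115 and 254 CPM and passed in no comparison as counted.

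Of the stress, metabolic and autophagy targets, Trp53inp1 (chr4:11156441-11174379), a p53-induced nuclear protein with roles in autophagy and cell death, rose with Irf1 siRNA in both conditions. It was at 3.69 and 6 CPM in untreated siCtr cells and 36.9, 31 and 54.1 CPM in untreated siIrf1 cells, and at 12.9 and 6.53 CPM against 45.3, 22.9 and 41.2 CPM with TGFbeta. The groups were apart in both conditions. The rise was 8.35-fold without TGFbeta (log2 3.06, SE 0.45, adjusted p = 0.00154) and 3.73-fold with it (1.90, SE 0.419, adjusted p = 0.0124). It is the member with the lowest GC content, 38.8%, and trend-removed the values were 1.36 (adjusted p = 0.00229) and 0.97 (adjusted p = 0.00974). The call with TGFbeta was lost without treated siCtr replicate 3 (1.44, adjusted p = 0.125).

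Dram1, a lysosomal membrane protein linked to autophagy, was nearly silent. It was listed at 0 counts in the 3 untreated siIrf1 libraries and held 36 counts in treated siIrf1 cells, at 0.295, 0.217 and 0.331 CPM. Against a floor of 3 counts over the group, which allows up to 0.0263 CPM, this is at least 10-fold higher. In the siCtr groups it held 2 and 5 counts. It was called with TGFbeta in siIrf1 cells (adjusted p = 0.00137) and with Irf1 siRNA in the presence of TGFbeta (adjusted p = 0.0358, trend-removed 0.0238). The latter call was lost by DESeq2 (adjusted p = 0.107) and without either treated siCtr library or without treated siIrf1 replicate 1 or 3 (adjusted p 0.0831 to 0.194). The floor covers counting error only.

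The other 5 genes of the stress class passed in no comparison as counted. Gdf15, a stress cytokine, was at 22.2 and 32.1 CPM in untreated siCtr cells and 40.9, 67.2 and 37.5 CPM in untreated siIrf1 cells, and at 13.8 and 12.9 CPM against 21.9, 33.2 and 11.6 CPM with TGFbeta. Its values were 0.84 (adjusted p = 0.143) with Irf1 siRNA and -1.02 (adjusted p = 0.106) with TGFbeta in siCtr cells. Its GC content is 61.3%, and trend-removed it was 1.34 (adjusted p = 0.00108) and -0.94 (adjusted p = 0.005). Ei24, an endoplasmic reticulum protein, had 0.73 (adjusted p = 0.0856) with Irf1 siRNA and TGFbeta, and trend-removed 0.73 (adjusted p = 0.0314). Sesn1, a sestrin that restrains mTORC1, was at 4.86 to 8.41 CPM over all libraries. Tigar, a phosphatase that lowers glycolytic flux, was at 41.5 to 55.5 CPM, and Phlda3, an AKT inhibitor, at 97.9 to 134 CPM.

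Among the nucleotide supply and repair genes, Rrm2b, the p53-inducible ribonucleotide reductase subunit, and Polk, a translesion DNA polymerase, rose with Irf1 siRNA without TGFbeta. Rrm2b was at 1.06 and 2.67 CPM in untreated siCtr cells, 8.26, 11.2 and 10.7 CPM in untreated siIrf1 cells, 8.49 and 3.6 CPM in treated siCtr cells and 13.6, 7.33 and 12.1 CPM in treated siIrf1 cells. The untreated siCtr libraries were the lowest. Its rise was 2.41 (SE 0.497, adjusted p = 0.00671) with Irf1 siRNA, and trend-removed it was lost (0.95, adjusted p = 0.0548). Without untreated siCtr replicate 3 it was 3.31. With TGFbeta in siCtr cells Rrm2b rose by 1.69 (SE 0.513, adjusted p = 0.0302), a call lost without untreated siCtr replicate 1 (1.23, adjusted p = 0.135) or treated siCtr replicate 2 (1.01, adjusted p = 0.246) and trend-removed (0.95, adjusted p = 0.0595), and 2.64 without untreated siCtr replicate 3. Polk was at 1.61 and 4.97 CPM in untreated siCtr cells against 12.6, 12.5 and 15 CPM in untreated siIrf1 cells. It rose by 2.01 (SE 0.509, adjusted p = 0.016, trend-removed 0.89), and the call was lost without untreated siCtr replicate 1 (1.41, adjusted p = 0.0821) and was 3.12 without untreated siCtr replicate 3.

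Ddb2, a damage recognition factor of nucleotide excision repair, fell with TGFbeta. It was at 24.3 and 20.1 CPM in untreated siCtr cells against 8.71 and 9.29 CPM in treated siCtr cells, and at 15.7, 18.4 and 17.6 CPM in untreated siIrf1 cells against 10.5, 10.6 and 13.1 CPM in treated siIrf1 cells. Libraries with and without TGFbeta did not overlap under either siRNA. The falls were -1.30 (SE 0.213, adjusted p = 0.0011) and -0.59 (SE 0.172, adjusted p = 0.0317). The smaller fall was lost trend-removed (-0.45, adjusted p = 0.114) and without 7 of the libraries, the 3 of untreated siIrf1, both of treated siCtr and treated siIrf1 replicates 1 and 2 (-0.66 to -0.54, adjusted p 0.0561 to 0.125). Xpc, another recognition factor of the same pathway, was at 50.6 to 88.4 CPM, and Aen, an apoptosis-enhancing nuclease, at 45.7 to 93 CPM. Neither passed in any comparison as counted.

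Of the death receptors, Fas and Eda2r rose with Irf1 siRNA and Tnfrsf10b, the TRAIL receptor, did not pass (-0.08, adjusted p = 0.748, without TGFbeta). Fas was at 1.3 and 3.79 CPM in untreated siCtr cells and 9.89, 9.18 and 11.6 CPM in untreated siIrf1 cells, and at 2.61 and 1.87 CPM against 5.99, 3.87 and 7.94 CPM with TGFbeta. All siIrf1 libraries were above the siCtr libraries of their condition. The rise without TGFbeta was 1.99 (SE 0.452, adjusted p = 0.0101, trend-removed 1.31), lost without untreated siCtr replicate 1 (1.42, adjusted p = 0.0516) and 3.05 without untreated siCtr replicate 3. With TGFbeta it was 1.39 (adjusted p = 0.0554) and, trend-removed, 0.96 (adjusted p = 0.0293). Eda2r (chrX:97333837-97377234), the receptor of ectodysplasin A2, was at 2.04 and 6.58 CPM against 29.2, 26.3 and 38.2 CPM without TGFbeta, and at 5.01 and 3.96 CPM against 19.6, 10.2 and 20.5 CPM with it. It rose 7.19-fold (log2 2.85, SE 0.499, adjusted p = 0.00327, trend-removed 1.53) and 3.72-fold (1.89, SE 0.475, adjusted p = 0.0218, trend-removed 1.16). Its value without TGFbeta was 2.24 without untreated siCtr replicate 1 and 4.00 without replicate 3. Its call with TGFbeta was lost without either treated siCtr library or without treated siIrf1 replicate 1 or 3 (1.69 to 2.01, adjusted p 0.0539 to 0.176).

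Perp and Cd82 encode membrane proteins. Perp (chr10:18845071-18857073), a p53 effector that is also a component of desmosomes in epithelia, was at 47.8 and 42.4 CPM in untreated siCtr cells, 88.5, 58.9 and 84.1 CPM in untreated siIrf1 cells, 36.4 and 38.7 CPM in treated siCtr cells and 106, 106 and 132 CPM in treated siIrf1 cells. The treated siIrf1 libraries were the highest of all 10. It rose 3.06-fold with Irf1 siRNA in the presence of TGFbeta (log2 1.61, SE 0.211, adjusted p = 8.92e-04, trend-removed 1.56). Without TGFbeta the rise was 0.78 (SE 0.204, adjusted p = 0.0178, trend-removed 0.75), lost without either untreated siCtr library or without untreated siIrf1 replicate 1 or 3 (0.67 to 0.85, adjusted p 0.0561 to 0.0726). TGFbeta raised it in siIrf1 cells by 0.57 (adjusted p = 0.0446), a call that leaving out any 1 library except treated siIrf1 replicate 2 removed (0.41 to 0.68, adjusted p 0.0511 to 0.13). Cd82, a tetraspanin known as a metastasis suppressor, fell with TGFbeta from 114 and 103 CPM to 35.7 and 34.2 CPM in siCtr cells, and from 77.4, 88.9 and 80.9 CPM to 46.1, 58.1 and 37.7 CPM in siIrf1 cells. The libraries did not overlap under either siRNA. The falls were -1.64 (SE 0.212, adjusted p = 2.55e-04) and -0.80 (SE 0.169, adjusted p = 0.00662), and the interaction was 0.84 (SE 0.267, adjusted p = 0.128).

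Of the pro-death genes, Bik (chr15:83526790-83544635), a BH3-only protein, was almost silent without TGFbeta and rose with it. It was at 0.0785 and 0.121 CPM in untreated siCtr cells and 0.126, 0.136 and 0.132 CPM in untreated siIrf1 cells, which is 6 and 15 counts over the groups. With TGFbeta it was at 2.79 and 2.2 CPM in siCtr cells and 0.974, 1.08 and 0.692 CPM in siIrf1 cells. Both treated siCtr libraries lay above the treated siIrf1 libraries, and these above all libraries without TGFbeta. It rose 23.8-fold in siCtr cells (log2 4.57, SE 0.42, adjusted p = 2.62e-05) and 6.91-fold in siIrf1 cells (2.79, SE 0.327, adjusted p = 1.73e-04). Irf1 siRNA lowered it in the presence of TGFbeta by 1.43 (SE 0.268, adjusted p = 0.00569, trend-removed -1.20), a call lost without treated siCtr replicate 2 (-1.30, adjusted p = 0.0705). The interaction was -1.79 (SE 0.589, adjusted p = 0.138).

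Pmaip1, which encodes NOXA, rose with TGFbeta in siCtr cells from 9.03 and 18.7 CPM to 65.1 and 41 CPM, by 1.94 (SE 0.478, adjusted p = 0.012). The libraries did not overlap. In siIrf1 cells it was at 29.2, 31.4 and 30.3 CPM without TGFbeta and 66, 24.2 and 59 CPM with it, treated siIrf1 replicate 2 being the low one (0.71, adjusted p = 0.234). Trend-removed, the value in siIrf1 cells was 0.68 (adjusted p = 0.0424), which passed. The call in siCtr cells was lost without untreated siCtr replicate 1 (1.55, adjusted p = 0.057) or treated siCtr replicate 2 (1.64, adjusted p = 0.0724), and the value was 2.68 without untreated siCtr replicate 3. Bbc3, which encodes PUMA, was at 4.48 to 16 CPM over all libraries and passed in no comparison as counted. Its highest libraries were untreated siIrf1 replicate 2 at 14.5 CPM and treated siIrf1 replicate 2 at 16 CPM.

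Bax and Bak1 encode the pore-forming pair. Bax was at 215 and 209 CPM in untreated siCtr cells and 201, 234 and 199 CPM in untreated siIrf1 cells, and at 141 and 136 CPM and 139, 176 and 102 CPM with TGFbeta. It was lower with TGFbeta under both siRNAs. In siCtr cells the value was -0.61 (adjusted p = 0.0626), which did not pass as counted, and -0.57 (adjusted p = 0.0243) trend-removed. In siIrf1 cells it was -0.61 (SE 0.185, adjusted p = 0.0406). The latter call was lost without 7 of the libraries, the 3 of untreated siIrf1, both of treated siCtr and treated siIrf1 replicates 1 and 3 (-0.65 to -0.43, adjusted p 0.0719 to 0.116). Bak1 was at 134 to 236 CPM and Apaf1, the core of the apoptosome, at 28.8 to 77 CPM, and neither passed in any comparison as counted. With Irf1 siRNA and no TGFbeta their values were -0.49 (adjusted p = 0.0858) for Bak1 and 0.81 (adjusted p = 0.0773) for Apaf1.

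Of the pro-survival genes, Bcl2 rose and Bcl2l1 fell with TGFbeta in siCtr cells. Bcl2 was at 3.1 and 5.58 CPM in untreated siCtr cells and 14.5 and 10.7 CPM in treated siCtr cells, a rise of 1.53 (SE 0.439, adjusted p = 0.0235). That call was lost without untreated siCtr replicate 1 (1.22, adjusted p = 0.115) or treated siCtr replicate 2 (1.37, adjusted p = 0.117), and the value was 2.15 without untreated siCtr replicate 3. In siIrf1 cells Bcl2 was at 6.88, 9.09 and 9.63 CPM and, with TGFbeta, 15.1, 7.27 and 18.1 CPM, which overlapped. Bcl2l1, which encodes BCL-XL, was at 328 and 301 CPM in untreated siCtr cells against 181 and 181 CPM in treated siCtr cells. It fell by 0.80 (SE 0.184, adjusted p = 0.00804), a call lost without untreated siCtr replicate 1 or either treated siCtr library (-0.72 to -0.69, adjusted p 0.063 to 0.0987). In siIrf1 cells it was at 311, 353 and 291 CPM and, with TGFbeta, 238, 308 and 224 CPM (-0.31, adjusted p = 0.185). Trend-removed, the value in siIrf1 cells was -0.57 (adjusted p = 5.75e-04), which passed. Mcl1 was at 214 to 483 CPM and passed in no comparison as counted, with 0.54 (adjusted p = 0.0691) for Irf1 siRNA without TGFbeta. Per transcript length, Bcl2l1 and Mcl1 were far above Bcl2 in every group: in untreated siCtr cells the means were 98.3 ± 6.01, 86.6 ± 6.24 and 0.591 ± 0.238 RPKM (SD, n = 2).

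**Figure D4:**
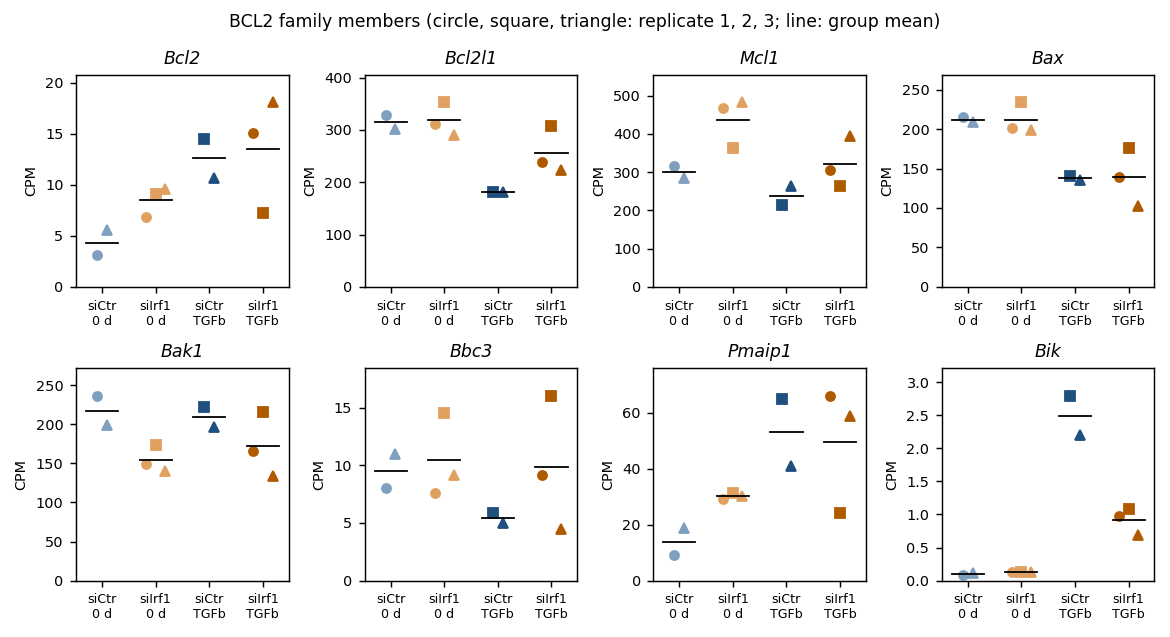
CPM (vertical axis, linear from 0, a scale per panel) of 8 BCL2 family genes in each of the 10 libraries, by group; circles, squares and triangles are replicates 1, 2 and 3 and lines are group means. Bik is near 0 without TGFbeta and highest in the 2 treated siCtr libraries, and Bcl2l1 is lowest in those libraries.

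Most members that rose with Irf1 siRNA have a low GC content. Its median over the longest transcript of each gene was 43.9% (38.8 to 54.4%) for the 11 genes that rose without TGFbeta and 49.9% (42.1 to 65.2%) for the 24 not called, against 49.8% over 12474 genes tested. The untreated siIrf1 libraries had more counts from GC-poor genes than the untreated siCtr libraries, as described above. Trend-removed, 10 of the 11 still passed, Rrm2b being lost, and the 4 largest rises became smaller: Trp53inp1 went from 3.06 to 1.36, Ccng1 from 2.85 to 1.58, Eda2r from 2.85 to 1.53 and Rrm2b from 2.41 to 0.95. Cdkn1a (1.19 and 1.58) and Btg2 (1.46 and 1.61) became larger, and Plk2 (1.16 and 1.14) and Perp (0.78 and 0.75) moved little. The trend-removed fit also called Bax (0.52), Bcl2l1 (0.45), Gdf15 (1.34) and Mcl1 (0.57) higher and Btg1 (-1.74), Ddb2 (-0.94) and Zmat3 (-0.77) lower. The part of base composition in what remained was not tested.

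**Figure D5:**
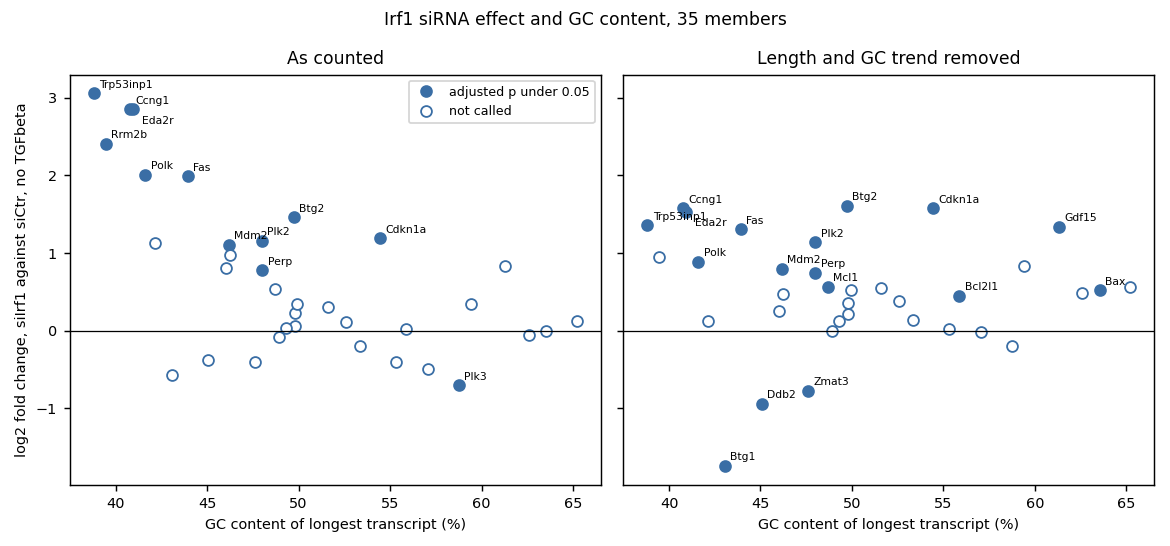
Log2 fold change of siIrf1 against siCtr without TGFbeta (vertical axis) of 35 members against the GC content of the longest transcript in percent (horizontal axis), as counted on the left and with the length and GC trend removed on the right; filled points had an adjusted p under 0.05. On the left the highest points, Trp53inp1 at 3.06 and Ccng1 and Eda2r at 2.85, lie at GC contents of 38.8 to 40.9%, and on the right no member exceeds 1.61.

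A wider list of 42 other genes of the pathway held p53 kinases, modifiers and inhibitors, further BCL2 family genes, and inhibitors and mitochondrial factors of apoptosis, of which 39 were tested. With Irf1 siRNA, 7 rose and 4 fell without TGFbeta, and 6 rose and 1 fell with it. Called in all were 28.2% and 17.9% of the 39, against 31.8% and 18% of all genes. With TGFbeta, 5 rose and 4 fell in siCtr cells, and 4 rose and 3 fell in siIrf1 cells. These are 23.1% and 17.9%, against 32.5% and 21.3% of all genes, so that none of these 4 totals exceeded the background. By edgeR the interaction called 0, where 4.12% of all genes were called, and by DESeq2 it called 4. At an unadjusted p under 0.05 there were 5, and the share of all genes there was not taken. These counts were 4 without untreated siCtr replicate 1 (siRNA, no TGFbeta), 4 and 3 without treated siCtr replicate 2 and 3 (siRNA with TGFbeta), and 5, 4 and 5 without untreated siCtr replicate 1 and treated siCtr replicates 2 and 3 (TGFbeta in siCtr), where it was 17 without untreated siCtr replicate 3. The interaction count was 4 without untreated siCtr replicate 3.

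The smallest adjusted p of the wider list with Irf1 siRNA and no TGFbeta belonged to the damage kinase genes Atm and Atr and the caspase inhibitor gene Xiap. Atm was at 1.81 and 3.3 CPM in untreated siCtr cells against 32.5, 28.1 and 41.3 CPM in untreated siIrf1 cells, and at 5.38 and 5.23 CPM against 43.6, 24 and 23 CPM with TGFbeta. It rose by 3.72 (SE 0.398, adjusted p = 4.79e-04) and 2.51 (SE 0.368, adjusted p = 0.00186), and trend-removed by 2.47 and 1.90. Atr rose by 3.67 and 2.89, and trend-removed by 2.07 (adjusted p = 0.0116) and 2.16. Xiap rose by 3.98 (adjusted p = 6.64e-04) without TGFbeta, and trend-removed by 2.01; without untreated siCtr replicate 3 the value was 4.84. These 3 genes are poor in GC, at 42.6, 40.8 and 36.8%. Hipk2, a kinase that phosphorylates p53, fell with Irf1 siRNA in the presence of TGFbeta by 1.33 (adjusted p = 0.00559, trend-removed -1.19), from 67.2 and 59.9 CPM to 27.5, 17.4 and 31.2 CPM.

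With TGFbeta, the BH3-only gene Bcl2l11, which encodes BIM and is a known mediator of TGFbeta-induced death, rose under both siRNAs. It went from 23.2 and 20.4 CPM to 67.9 and 73 CPM in siCtr cells (1.69, adjusted p = 1.24e-04) and from 22.6, 22 and 23.5 CPM to 58.1, 46.9 and 65 CPM in siIrf1 cells (1.32, adjusted p = 1.99e-04). The libraries did not overlap. Bmf, another BH3-only gene, rose by 1.41 (adjusted p = 7.46e-05) in siIrf1 cells, where it went from 124, 157 and 143 CPM to 353, 435 and 336 CPM. It also rose in siCtr cells, by 0.59 (adjusted p = 0.0262), a call lost without untreated siCtr replicate 1 or either treated siCtr library (0.67 to 0.69, adjusted p 0.0634 to 0.0769), and it fell with Irf1 siRNA without TGFbeta by 1.11 (adjusted p = 0.00126, trend-removed -0.89). Ppp1r13l, which encodes the p53 inhibitor iASPP, rose by 2.60 (adjusted p = 4.96e-04) in siIrf1 cells and by 2.14 (adjusted p = 0.00358) in siCtr cells. In siCtr cells Birc5, which encodes survivin and is a gene of dividing cells, fell by 1.73 (adjusted p = 1.95e-04) from 269 and 178 CPM to 66.5 and 68.7 CPM, and in siIrf1 cells it fell by 0.82 (adjusted p = 0.00608). Ppp1r13b, which encodes ASPP1, fell there by 0.93 (adjusted p = 0.00239), a call lost without treated siCtr replicate 2 (-0.75, adjusted p = 0.0654). In siIrf1 cells it fell by 0.60 (adjusted p = 0.0115), a call lost without treated siIrf1 replicate 1 (-0.55, adjusted p = 0.0636).

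Of the 36 members, 21 were called in at least 1 comparison and 15 in none. The same tally was not made for all genes, so that these counts have no background beside them. The 15 were Aen, Apaf1, Bak1, Bbc3, Btg1, Ei24, Gdf15, Mcl1, Phlda3, Sesn1, Tigar, Tnfrsf10b, Trp53, Xpc and Zmat3. Of the 38 calls, 17 held under every alternative that gave a value, up to 19 each, and 21 were lost under at least 1, and none changed direction. In the siRNA comparisons 6 of 12 calls held without TGFbeta and 3 of 9 with it, and in the TGFbeta comparisons 5 of 9 in siCtr and 3 of 8 in siIrf1 cells.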

How the data were processed

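RNA libraries (TruSeq Stranded kit, per the labels' protocols) were mapped with STAR to mm10 (GRCm38), per the submitters' processing notes. For the counting step, neither the tool nor its strand setting was given in the sources used here. The deposited values are raw counts per gene, as the file headers give them, with a gene length beside them. Of 24454 gene IDs, 24374 were matched to RefSeq GRCm38.p6 and 73 to no name. The 36 members and the wider list were chosen with earlier results of these data known, and every member is named, with up to 3 called genes of the wider list per comparison by smallest adjusted p.

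Genes were filtered by filterByExpr and normalised by TMM, and 13135 genes in 10 libraries were fitted by edgeR 4.0.16 (R 4.3.3; quasi-likelihood F test, 4 groups, 6 residual degrees of freedom). Benjamini-Hochberg adjustment ran over all genes in each of 5 comparisons, with a threshold of 0.05. SEs are of the log2 fold change. A trend-removed fit used per-library offsets from transcript length and GC content, known for 95% of tested genes. DESeq2 1.42.0 and the alternatives in the closing section were run with the same groups, and the method was tested on simulated data. There, for TGFbeta in siCtr cells, 21.5% of the genes given a log2 change of 1 were called, and 90.7% of those given 2. A gene that did not pass is therefore not shown to be unchanged. Replicates were not the same library deposited again: their counts gave a chi-square of 24.8 to 318 times its degrees of freedom. Same-numbered libraries deviated together weakly in untreated and treated siIrf1 cells (r = 0.136, 0.448 and 0.302 over genes), a pairing that the labels do not state. In the other pairs of groups r was -0.393 to 0.342. It was positive also between untreated siCtr and untreated siIrf1 cells (0.124 and 0.333) and between untreated siIrf1 and treated siCtr cells (0.221 and 0.105). Promoter sequences are from RefSeq (GRCm38.p6).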

Additional observations from a re-analysis of the deposited data

How the results depend on the processing

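The members' calls and the named genes of the wider list kept their direction under every alternative that gave a value, up to 19 each. The stricter filter removed some low genes, and the compared groups alone give no interaction. The number of members called, 9 and 8 for TGFbeta in siCtr and siIrf1 cells, 12 and 9 for Irf1 siRNA without and with TGFbeta and 0 for the interaction, moved to 17, 16, 17, 16 and 5 in the fit without the length and GC trend, and to 14, 14, 19, 15 and 1 with the trend removed together with the replicate block. For TGFbeta in siIrf1 cells it was 4 with the stricter filter (2 CPM in 3 libraries) and 5 with the compared groups alone. Without treated siIrf1 replicate 2 and untreated siCtr replicate 1 together it was 15 there and 15 for Irf1 siRNA with TGFbeta. The interaction called 3 members with DESeq2 and 1 with the replicate block (Plk2). The replicate block alone gave 10, 10, 15 and 9 members in the other comparisons. In all 4 groups the labels give samples a replicate number and a further code in the title (e2, e3 or e4, 1 for each replicate number). They do not state the meaning of this code. For TGFbeta in siCtr cells the block added Gdf15 (-1.33) and Bax (-0.72) and lost Rrm2b. For Irf1 siRNA without TGFbeta it added Apaf1 (0.99, adjusted p = 0.0192), Mcl1 (0.64, adjusted p = 0.0155) and Bak1 (-0.60, adjusted p = 0.0184), and with TGFbeta it added Bcl2l1 (0.51, adjusted p = 0.0486) and lost Dram1. Leaving out 1 library at a time gave 5 to 15, 3 to 12, 7 to 18, 4 to 11 and 0 to 4 members.

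For the wider list (9, 7, 11, 7 and 0 called), DESeq2 gave 16 for TGFbeta in siCtr cells and 4 for the interaction. Trend-removed, TGFbeta in siIrf1 cells gave 14, Irf1 siRNA with TGFbeta 11 and the interaction 3, and with the replicate block as well 11, 11 and 2. Both libraries left out together gave 13 for TGFbeta in siIrf1 cells and 13 for Irf1 siRNA with TGFbeta. Leaving out 1 library gave 4 to 17, 5 to 10, 4 to 15, 3 to 8 and 0 to 4. The alternatives for single named genes of this list were added after seeing the data.

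Over all genes, 4267, 2799, 4175, 2365 and 541 were called. Trend-removed these were 4339 for TGFbeta in siIrf1 cells, 3576 for Irf1 siRNA with TGFbeta and 1231 for the interaction, and with the replicate block as well 4311 and 903 for the first and last. Both libraries left out together gave 4835 and 4903 for TGFbeta in siIrf1 cells and Irf1 siRNA with TGFbeta. DESeq2 gave 1171 for the interaction. Leaving out 1 library gave 2294 to 5164, 1963 to 3311, 1693 to 5191, 762 to 2989 and 123 to 1607. The cause of these shifts was not tested.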
